A study of Triticum aestivum with 12 samples.

Results

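Line C22 is a bread wheat (Triticum aestivum) line that overexpresses TaSIP1ΔC, and its transcriptome was set against that of wild type (WT). The comparison used 6 of the 12 libraries of the series, 3 labelled C22 and 3 labelled WT, and took in every gene with enough counts for a test. Plants of both groups were untreated, and RNA came from the upper part of the seedlings, without roots, 2 months after germination. The other 6 libraries came from the TaSIP1ΔC overexpression lines C20 and C40, 3 each, sampled in the same way. The promoter that drives the transgene is not given in the labels, nor is it said whether replicates were separate plants, so p-values measure the spread between these libraries only. C22 is a single transgenic line, so an effect of its insertion site and an effect of the transgene cannot be told apart from these libraries alone.

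TaSIP1 is a NAC transcription factor with a transmembrane segment, and the ΔC form lacks it. In Arabidopsis, membrane-bound NAC factors of this kind are released from the endoplasmic reticulum when mitochondria malfunction, and they switch on nuclear genes for mitochondrial stress. Alternative oxidase, which passes electrons to oxygen without pumping protons, is the classical marker of that response, known as mitochondrial retrograde signalling. Wheat is hexaploid, so most genes occur as near-identical copies in the A, B and D subgenomes, and reads of such copies may be shared between them. The identifier of TaSIP1 is not given in the labels and the files do not name it, so its level was not analysed here. Functions below are those of the Pfam domains in the deposited table, and no domain means no function is given.

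Library totals were 25622422 to 38454215 counts in C22 and 37757184 to 43532179 counts in WT. Correlations of log2 CPM between replicates were 0.949 to 0.968 in C22 and 0.953 to 0.978 in WT, and the first principal component, which held 77.5% of the variance, separated the groups. CPM, the level used below, is a gene's counts per 1000000 counts of the library, after TMM scaling of the totals, and the scaling factors were 1.13 to 1.32 in C22 and 0.758 to 0.872 in WT. Markers of green shoot were high in both groups, with Rubisco small subunit genes summing to 13315 to 21933 CPM in C22 and 44141 to 61243 CPM in WT. Sums and raw shares of a list, here and below, take in all its members, tested or not. The root CASP family had 10 higher and 15 lower of 75 tested genes (9 lower without WT replicate 2, and 16 higher and 4 lower by library totals). Seed markers were mixed. Seed storage and lipid transfer genes had 6 higher and 21 lower of 37, while cupin-domain genes had 19 higher and 11 lower of 56. Markers of dividing and of floral or meristem tissue differed between the groups and are described below. In bulk RNA, a change in the number of cells of a type and a change in RNA per cell cannot be told apart.

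Of 73360 genes tested, 15210 (20.7%) were higher and 14795 (20.2%) lower in C22 than in WT, at an adjusted p of at most 0.05 (quasi-likelihood test of edgeR, p-values adjusted after Benjamini and Hochberg). In all, 40.9% of the tested genes passed. The median log2 fold change over all tested genes was 0.03. Large changes were mostly rises: 3397 genes rose and 672 fell by at least 3 on the log2 scale, and 1662 rose and 156 fell by at least 5. A group of 731 tested genes had 0 counts in every WT library, and 224 of them averaged at least 2 CPM in C22. Only 19 tested genes had 0 counts in every C22 library, and 7 of these averaged at least 2 CPM in WT. Genes without counts in a group could reach the test only through the other group, so the direction of their change was fixed. All 731 were called higher and all 19 lower. With all 12 libraries in the fit, whose spread was larger, 7181 genes were higher and 6485 lower. Scaled by library totals without TMM, 31592 were higher and 6313 lower, and the median moved to 0.56. The counts below depend on both choices: of the 128 counts of rising or falling members over the 64 lists, 91 moved by more than 1.5 times in the fit of 12 libraries and 81 with library totals. The subgenomes shared the changes evenly: 21.0% of tested A genes, 19.9% of B genes and 21.3% of D genes were higher, and 20.3%, 20% and 20.3% were lower.

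**Figure D1:**
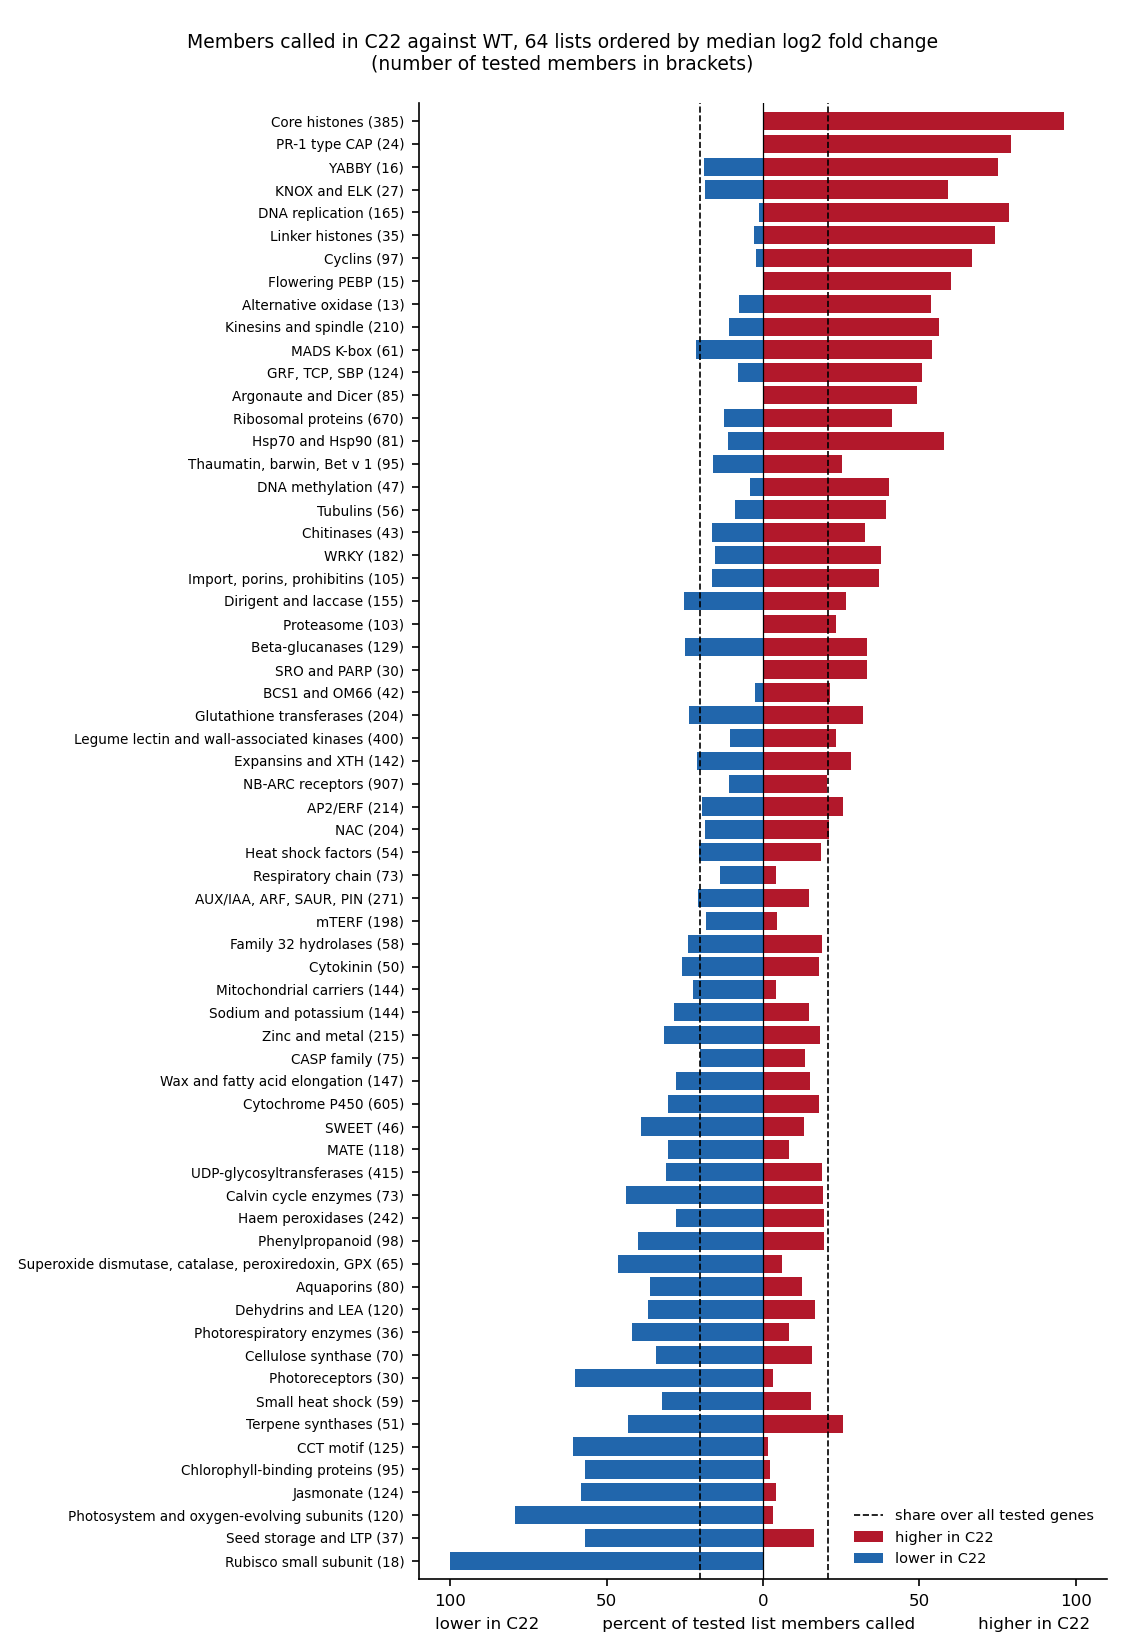
Share of the tested members of 64 gene lists called higher (right, red) or lower (left, blue) in C22 than in WT, in percent, with lists ordered by median log2 fold change from the top. Dashed lines mark the 20.7% higher and 20.2% lower among all tested genes. Core histones (371 of 385 higher) stand at the top and Rubisco small subunit genes (18 of 18 lower) at the bottom.

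Genes of DNA replication and chromatin assembly rose. Core histones, which package new DNA during S phase, had the highest median of the 64 lists: 371 of 385 tested genes rose, the other 14 did not pass, and the median log2 fold change was 6.45. With the 80 genes that had 0 counts in WT set at their lower bound, the median was 5.92. These 80 genes reached the test only through their C22 counts, so their direction was fixed. Summed over the list, core histones reached 7082, 10931 and 7296 CPM in C22, against 1232, 1219 and 1364 CPM in WT. As a share of raw counts, they took 0.796%, 1.44% and 0.852% of the C22 libraries and 0.107%, 0.106% and 0.103% of the WT libraries. Replicate 2 of C22 was highest, and the lowest C22 library was still above every WT library.

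The largest rise of a described gene belonged to a histone H2A gene, TraesCS1A01G038200 (chromosome 1A, 21022806 to 21023363). It had 88.3, 145 and 89.5 CPM in C22 and 0 counts in every WT library, at least 3564-fold higher when the WT group as a whole is given 3 counts (adjusted p = 3.53e-05). A second H2A gene, TraesCS5D01G252700 (chromosome 5D, 358798386 to 358798865), was at least 1730-fold higher, and the core histone gene TraesCS3A01G377400 (chromosome 3A, 627269414 to 627270042) at least 1478-fold. TraesCS1A01G287800, annotated with the CENP-T histone fold, had 30.4, 49.0 and 31.0 CPM in C22 and 0 counts in WT, at least 1220-fold higher; the same fold is listed for 97 tested genes, most of them core histones, and 96 of them rose. Many histone genes with WT counts moved in the same direction by less. TraesCS6D01G062300, for instance, averaged 28.6 ± 6.32 CPM in C22 and 0.613 ± 0.119 CPM in WT (SD, n = 3 each), a log2 fold change of 5.55 ± 0.25 (SE). Linker histones, which bind between nucleosomes, rose in 26 of 35 tested genes and fell in 1. The abundant linker histone gene TraesCS5D01G451300 had 173, 202 and 164 CPM in C22, against 35.4, 32.6 and 75.9 CPM in WT, and rose by 1.90 on the log2 scale. Because histone copies are nearly identical, the split of reads between single copies is uncertain, while the summed level does not depend on it.

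The replication machinery rose with the histones. Of 165 tested genes with replication domains, 130 rose and 2 fell, with a median log2 fold change of 2.54. All 183 genes of the list summed to 1034, 1839 and 1090 CPM in C22 and 320, 325 and 326 CPM in WT. All 15 tested genes with an MCM N-terminal domain, part of the helicase that unwinds DNA at replication origins, rose, with a median of 9.94. The MCM gene TraesCS1B01G274600 (chromosome 1B, 481863034 to 481868723) had 25.6, 70.3 and 30.9 CPM in C22 and 0 counts in WT, at least 1389-fold higher. TraesCS1A01G299500, another MCM gene, had 30, 69.6 and 34.8 CPM in C22, against 0.106, 0.0304 and 0.0330 CPM in WT, and rose by 9.48 ± 0.55 (SE) on the log2 scale (adjusted p = 3.17e-05). C22 replicate 2 was the highest library for both genes. The groups did not overlap, and C22 lay wholly above WT in 29.1% of all tested genes. Replication protein A, which coats single-stranded DNA, rose at TraesCS4B01G246900 (log2 fold change 7.98) and at TraesCS4D01G246300, which had 0 counts in WT and was at least 713-fold higher. The small subunit of ribonucleotide reductase, the enzyme that makes deoxyribonucleotides, averaged 25.6 ± 5.16 CPM at TraesCS7A01G204800 in C22 and 2.28 ± 0.318 CPM in WT. Of the exceptions, the CDC45-like gene TraesCS4A01G189900 fell by 1.11 on the log2 scale (adjusted p = 0.108 by library totals).

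Genes of mitosis and of the cell cycle rose too. Cyclins, which time the cell cycle with their kinases, rose in 65 of 97 tested genes and fell in 2, with a median of 1.72. The cyclin TraesCS5A01G161000 had 5.41, 6.76 and 6.01 CPM in C22 and 0.0265, 0.0304 and 0.0660 CPM in WT, a log2 fold change of 7.13. TraesCS6B01G125000, also with a cyclin domain, averaged 7.13 ± 0.958 CPM in C22 and 13.6 ± 2.13 CPM in WT, and fell (adjusted p = 0.0621 by library totals). Kinesins and spindle proteins rose in 118 of 210 tested genes and fell in 23. The spindle assembly factor TPX2, at TraesCS2B01G250000, averaged 7.07 ± 1.46 CPM in C22 and 0.140 ± 0.0227 CPM in WT, and rose by 5.63 on the log2 scale. Some genes annotated as microtubule-associated proteins fell, among them TraesCS5A01G233900, with 10.3 ± 1.31 CPM in C22 and 29.6 ± 4.36 CPM in WT.

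DNA methylation and small RNA genes followed the same direction in smaller numbers. Of 47 tested genes with cytosine methylase or related domains, 19 rose and 2 fell, with a median of 0.55. Genes on chromosomes 6A, 6B and 6D that carried a chromodomain beside the methylase domain, the arrangement of the chromomethylases that maintain non-CG methylation, were among those that rose. TraesCS6B01G419000 had 34.8, 71.9 and 39.9 CPM in C22 and 0.0794, 0 and 0 CPM in WT, a ratio of 1619 with a 95% counting interval of 554 to 7856. TraesCS6A01G380200 averaged 42.7 ± 18.6 CPM and TraesCS6D01G364900 averaged 34.3 ± 13.5 CPM in C22, and neither exceeded 0.0794 CPM in a WT library. Argonaute and Dicer genes, which load and cut small RNAs, rose in 42 of 85 tested genes, with a median of 0.82, and the others did not pass. The Argonaute gene TraesCS5D01G169500 averaged 4.24 ± 0.791 CPM in C22 and 0.190 ± 0.110 CPM in WT.

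**Figure D2:**
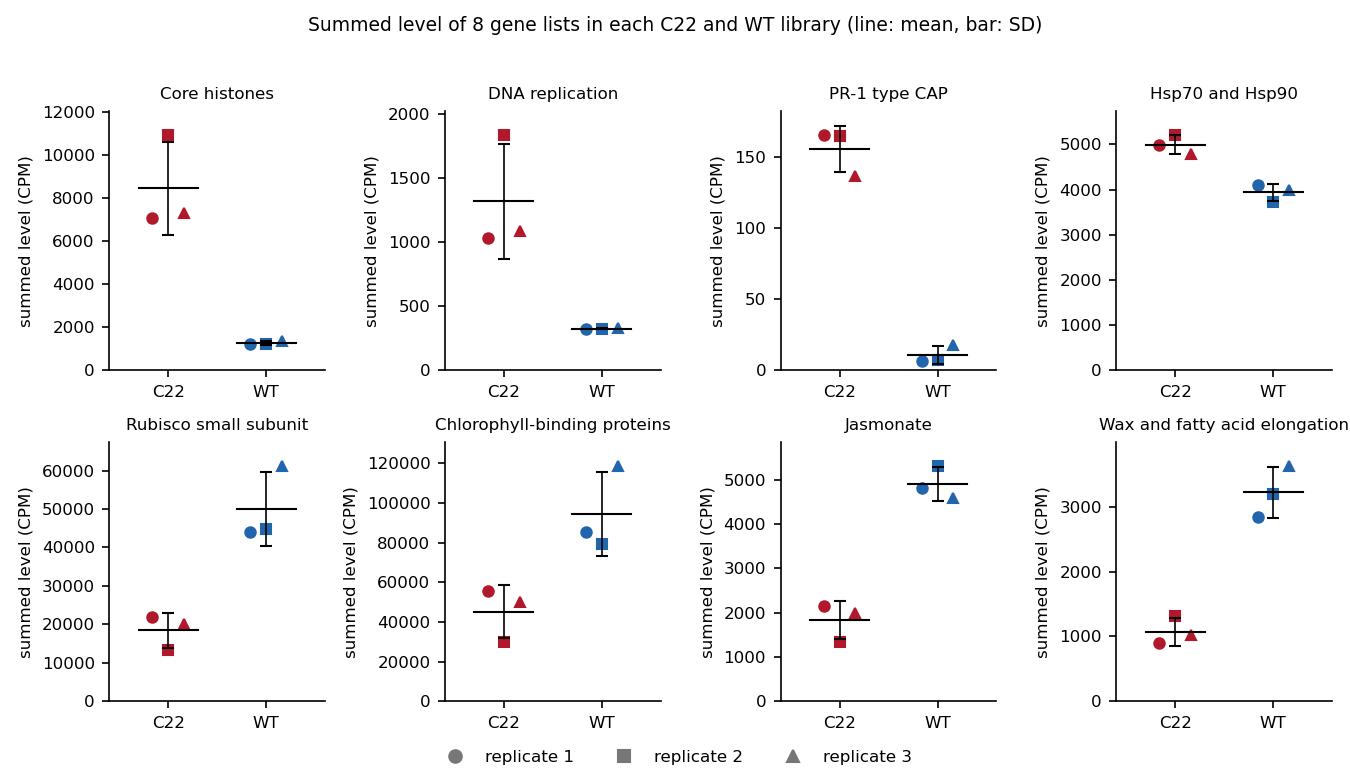
Summed level of 8 gene lists in each C22 (left, red) and WT (right, blue) library, in CPM on linear axes from 0; marker shapes give the replicate number, horizontal lines the mean and bars the SD of 3 libraries. Core histones lay at 7082 CPM or more in C22 and at 1364 CPM or less in WT, and Rubisco small subunit genes at 21933 CPM or less in C22 and at 44141 CPM or more in WT; the 2 groups do not overlap in any of the 8 lists.

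Photosynthesis genes fell. Every one of 18 tested Rubisco small subunit genes was lower in C22, with a median log2 fold change of -1.70, and their sum was 21933, 13315 and 20169 CPM in C22, against 44141, 44730 and 61243 CPM in WT. As raw shares of the libraries these were 2.46%, 1.75% and 2.35% in C22 and 3.83%, 3.90% and 4.64% in WT. Photosystem and oxygen-evolving subunits fell in 95 of 120 tested genes and rose in 4, with a median of -1.14. Chlorophyll-binding proteins, the light-harvesting antennae, fell in 54 of 95 and rose in 2, with a median of -0.97 and sums of 55495, 29915 and 50043 CPM in C22 against 85484, 79305 and 118683 CPM in WT. The number of falling antenna genes depended on single libraries: it was 24 without C22 replicate 3, 27 without WT replicate 1, 31 without WT replicate 2 and 27 without WT replicate 3. With all 12 libraries in the fit, 6 Rubisco, 36 photosystem and 5 antenna genes fell, and scaled by library totals 18, 70 and 27 fell, with 8 antenna genes rising. C22 replicate 2, the library with the highest histone sum, had the lowest sum in both lists, and the part of the division genes in these falls was not tested.

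Single genes showed the size of the difference. The Rubisco small subunit gene TraesCS2B01G079400 (chromosome 2B, 44346502 to 44347756) had 245, 139 and 253 CPM in C22, against 925, 1085 and 1285 CPM in WT, and fell by 2.37 ± 0.30 (SE) on the log2 scale (adjusted p = 0.000765). The light-harvesting gene TraesCS5A01G213000 had 59.6, 34.2 and 54.4 CPM in C22, against 133, 153 and 175 CPM in WT, a log2 fold change of -1.64. Psb28, a photosystem II assembly protein, averaged 16.8 ± 3.28 CPM at TraesCS5D01G516700 in C22 and 74.0 ± 6.45 CPM in WT. Phosphoribulokinase, which regenerates the acceptor of carbon dioxide in the Calvin cycle, averaged 46.8 ± 13.9 CPM at TraesCS3A01G265900 in C22 and 149 ± 18.2 CPM in WT. Calvin cycle enzymes as a list were mixed, with 32 falling and 14 rising of 73. The rising share, 19.2%, was near the 20.7% of all tested genes, and library totals gave 25 rising and 25 falling. The photosystem list did not move as a block either, because 3 genes for the photosystem II 10 kDa polypeptide rose. TraesCS6B01G412100 had 28.8, 41.7 and 37.9 CPM in C22 and 8.65, 4.59 and 11.5 CPM in WT, and TraesCS6A01G374400 and TraesCS6D01G358900 rose by 3.41 and 2.02 on the log2 scale. The gene with the largest loss in CPM, the Rubisco gene TraesCS5D01G169900, had 3982, 2450 and 3570 CPM in C22 and 7357, 7130 and 9904 CPM in WT (adjusted p = 0.0298). Its groups did not overlap, which the rule that picked it required. C22 lay wholly below WT in 26.7% of all tested genes. The adjusted p of this Rubisco gene was 0.0563 without C22 replicate 1, 0.101 without C22 replicate 3, 0.0757 without WT replicate 1, 0.0717 without WT replicate 2 and 0.0689 without WT replicate 3. It was 0.148 with all 12 libraries in the fit, and 0.204 and 0.11 by limma on log2 FPKM with pseudocounts of 0.1 and 1.

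Light and clock regulators fell with the photosynthesis genes. Of 125 tested genes with a CCT motif of either form, 76 fell and 2 rose, with a median of -0.92. The plain CCT motif, found in CONSTANS-like and pseudo-response regulator proteins, had 39 falling and 2 rising of 84, with a median of -0.48. The divergent CCT motif had 37 falling and 0 rising of 41, with a median of -1.94. That form also occurs beside the tify domain, as in TraesCS2A01G286700, so the list shares members with the jasmonate list below. The CCT gene TraesCS2D01G121400 had 0.795, 0.830 and 0.824 CPM in C22, against 9.55, 10.5 and 7.49 CPM in WT, a log2 fold change of -3.49 ± 0.20 (SE). The CCT genes TraesCS2A01G119600 and TraesCS2B01G140300, on chromosomes 2A and 2B, fell by 3.06 and 2.87. Photoreceptor genes fell in 18 of 30 and rose in 1, and the photolyase and cryptochrome type gene TraesCS6B01G257600 averaged 4.70 ± 0.761 CPM in C22 and 14.0 ± 1.13 CPM in WT.

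Alternative oxidase genes did not move together. Of 13 tested genes, 7 rose, 1 fell and 5 did not pass, with a median log2 fold change of 1.03. Those that rose sit on chromosomes 2A, 2B and 2D, and the gene that fell on 6A. TraesCS2A01G438200 had 14.2, 7.80 and 12.9 CPM in C22, against 1.01, 0.973 and 1.19 CPM in WT, a log2 fold change of 3.46 ± 0.26 (SE, adjusted p = 8.7e-05). TraesCS2D01G436200 had 10.9, 4.51 and 7.04 CPM in C22, against 0.344, 1.37 and 1.22 CPM in WT, and rose by 2.95 (adjusted p = 0.00231). TraesCS2A01G438300 was low in both groups, with 3.39, 0.741 and 1.40 CPM in C22 and 0.238, 0.334 and 0.264 CPM in WT, and rose by 2.71. TraesCS2B01G459100 had 17.9, 14.1 and 18.8 CPM in C22, against 4.37, 4.71 and 6.17 CPM in WT, and rose by 1.74 (adjusted p = 0.000349). For each of these 4 genes every C22 library was above every WT library, as was so for 29.1% of all tested genes, and C22 replicate 2 was the lowest of the C22 libraries.

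The other alternative oxidase calls were weaker. TraesCS2B01G459300 (log2 fold change 1.67, adjusted p = 0.0159) and TraesCS2D01G436700 (1.64, adjusted p = 0.0186) had adjusted p of 0.0588 and 0.0669 without WT replicate 2. TraesCS2B01G459000 (1.03, adjusted p = 0.0308) had adjusted p of 0.068 without C22 replicate 1, 0.108 without C22 replicate 3, 0.0813 without WT replicate 1 and 0.0765 without WT replicate 2, and 0.21 with all 12 libraries in the fit. The gene with the highest level in both groups, TraesCS2D01G542600, differed by -0.26 and did not pass, like TraesCS2A01G439400 (0.60), TraesCS2B01G571700 (-0.04), TraesCS6B01G296400 (-0.29) and TraesCS2A01G541400 (-0.61). Scaled by library totals, TraesCS2D01G542600 differed by 0.26, TraesCS2B01G571700 by 0.49 and TraesCS6B01G296400 by 0.24. TraesCS6A01G269100 had 16, 10.6 and 13.2 CPM in C22, against 24.2, 21.9 and 24.4 CPM in WT, and fell by 0.83 (adjusted p = 0.00596), a call that did not hold by library totals alone (adjusted p = 0.117) or with all 12 libraries in the fit (0.307). Summed over all 15 alternative oxidase genes, tested or not, the groups overlapped, with 196, 109 and 168 CPM in C22 and 129, 129 and 155 CPM in WT.

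**Figure D3:**
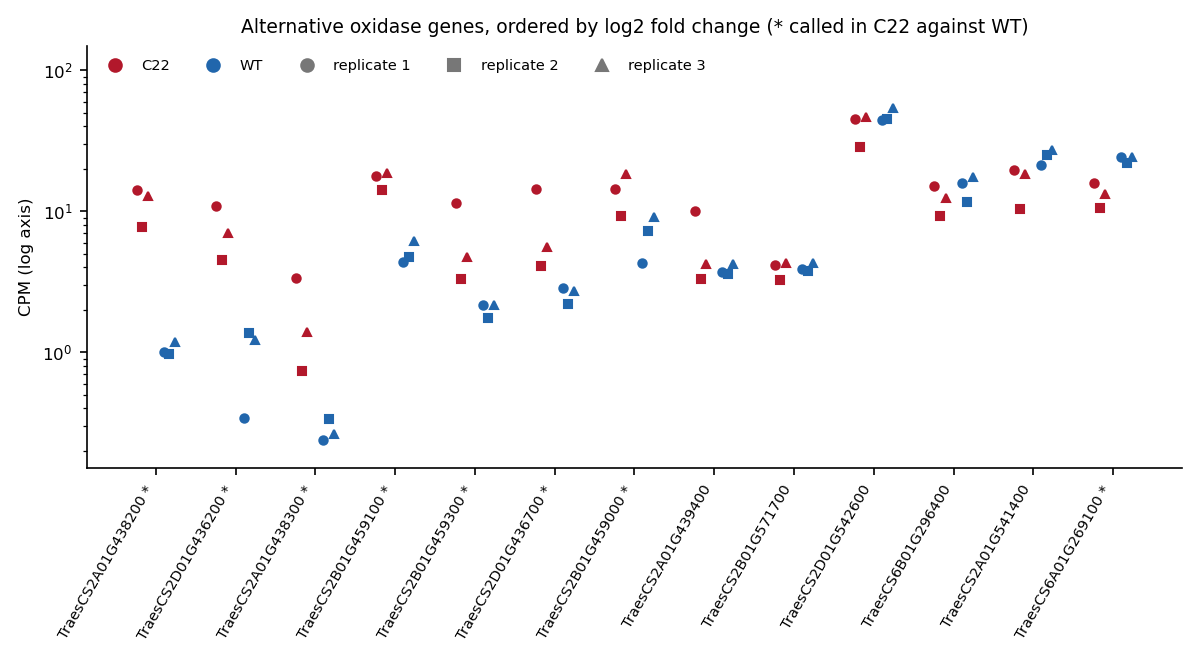
Level of the 13 tested alternative oxidase genes in each C22 (red, left of each pair) and WT (blue) library, in CPM on a log axis, ordered by log2 fold change from 3.46 to -0.83, with marker shapes for the replicate number. Asterisks mark the 8 genes called, 7 higher and 1 lower in C22; the 7 genes called higher show no overlap between the groups.

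Other mitochondrial lists differed in direction. BCS1-type AAA ATPases, the family of the retrograde marker OM66 in Arabidopsis, rose in 9 of 42 tested genes and fell in 1, near the share among all genes (20.7%). Among those that rose were TraesCS2A01G221300, with 5.78, 2.34 and 6.97 CPM in C22 and 0.609, 0.334 and 0.297 CPM in WT, and TraesCS7A01G492000, which rose by 3.91 on the log2 scale. Import components, porins and prohibitins rose in 39 of 105 and fell in 17. A prohibitin-type SPFH gene rose in each subgenome, TraesCS2A01G337100, TraesCS2B01G344800 and TraesCS2D01G325800, by 1.81, 2.13 and 2.22 on the log2 scale. The Tim17-family gene TraesCS1A01G033500, a type found in the inner membrane import channel, had 6.97, 4.57 and 6.68 CPM in C22, against 46.3, 60.6 and 32.1 CPM in WT, and fell by 2.93. Mitochondrial carriers, which move metabolites across the inner membrane, rose in 6 of 144 and fell in 32, with a median of -0.21, and TraesCS1D01G195400 averaged 15.2 ± 4.79 CPM in C22 and 88.9 ± 14.7 CPM in WT. Scaled by library totals the carriers had 38 rising and 8 falling members, so their direction depends on the scaling, and the falling count was 21, 20 and 21 without C22 replicate 2, C22 replicate 3 and WT replicate 2. The mTERF genes, regulators of organelle gene expression, rose in 9 and fell in 36 of 198, and scaled by library totals rose in 33 and fell in 16. The falling shares of carriers (22.2%) and mTERF genes (18.2%) were near the 20.2% of all tested genes. Their rising shares (4.17% and 4.55%) were below the 20.7% of all tested genes.

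Poly(ADP-ribose) polymerase and SRO genes, the family of the TaSIP1 partner TaSRO1, rose in 10 of 30 tested genes, with a median of 0.28, and the others did not pass. The polymerase catalytic domain rose in 7 of 17 genes. The RST domain, named after RCD1, SRO and TAF4 proteins, rose in 0 and fell in 0 of 18, with a median of -0.01. The polymerases with SAP and WGR domains, which act in DNA repair, rose in all 3 subgenomes: TraesCS7A01G414700 had 5.59, 5.34 and 4.34 CPM in C22 and 0.688, 0.638 and 0.297 CPM in WT, and TraesCS7B01G314600 and TraesCS7D01G407800 rose by 4.02 and 4.10 on the log2 scale. NAC transcription factors, the family of TaSIP1 itself, rose in 43 and fell in 38 of 204 tested genes, with a median of 0.00. These shares, 21.1% and 18.6%, were near the 20.7% and 20.2% of all tested genes. The NAC gene TraesCS5D01G481200 averaged 64.2 ± 11.2 CPM in C22 and 24.7 ± 3.02 CPM in WT, and TraesCS3D01G245500 averaged 6.37 ± 0.684 CPM in C22 and 14.6 ± 1.80 CPM in WT. With all 12 libraries in the fit their adjusted p was 0.074 and 0.104.

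Antioxidant enzymes fell more often than they rose. Superoxide dismutases, catalases, peroxiredoxins and glutathione peroxidases fell in 30 of 65 tested genes and rose in 4, with a median of -0.51. Scaled by library totals, 12 rose and 13 fell. The redoxin-domain gene TraesCS6A01G169100 had 41.4, 29.5 and 40.7 CPM in C22, against 175, 203 and 202 CPM in WT, and fell by 2.38. A copper/zinc superoxide dismutase, TraesCS2D01G123300, rose, with 42.6 ± 3.04 CPM in C22 and 24.9 ± 1.12 CPM in WT (adjusted p = 0.0605 with all 12 libraries in the fit). Glutathione transferases, which conjugate toxic compounds, split into 65 that rose and 48 that fell of 204. At the extremes, TraesCS1D01G257800 averaged 13.2 ± 2.10 CPM in C22 and 0.0366 ± 0.0401 CPM in WT, and TraesCS1B01G097400 averaged 17 ± 1.80 CPM in C22 and 106 ± 17.7 CPM in WT.

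Chaperones split by family. Hsp70 and Hsp90 genes rose in 47 of 81 tested genes and fell in 9 (5 without C22 replicate 3, 4 without WT replicate 1), with a median of 0.59 and sums of 4987, 5214 and 4788 CPM in C22 against 4091, 3728 and 3999 CPM in WT. The Hsp70 gene TraesCS5B01G087700 had 179, 277 and 173 CPM in C22 and 78.1, 83.0 and 69.9 CPM in WT, while TraesCS5B01G111200, also Hsp70, averaged 99.8 ± 16.7 CPM in C22 and 166 ± 6.36 CPM in WT and fell, a call that did not hold with all 12 libraries in the fit (adjusted p = 0.112) or by library totals (0.245). Small heat shock proteins, which hold unfolding proteins, fell in 19 of 59 and rose in 9, with sums of 190, 146 and 214 CPM in C22 and 429, 539 and 511 CPM in WT. Without WT replicate 2 only 11 of them fell, and scaled by library totals 13 rose and 11 fell. TraesCS2D01G227800 had 17.9, 12.4 and 18.5 CPM in C22, against 92.1, 111 and 105 CPM in WT, a log2 fold change of -2.66, and TraesCS7B01G083400 rose by 3.68. Ribosomal proteins had 277 rising and 83 falling genes of 670 and a median of 0.62, yet their summed level was 17645, 19488 and 16525 CPM in C22 and 22078, 20824 and 17307 CPM in WT. Their rising count was 150 without C22 replicate 2 and 137 without WT replicate 2, and 62 with all 12 libraries in the fit, where 77 fell.

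Defence genes of the PR-1 type rose. PR-1 genes encode small secreted CAP proteins that mark salicylic acid responses, and 19 of 24 tested genes rose, with a median of 4.09, and the other 5 did not pass. All 76 genes of the list summed to 166, 165 and 137 CPM in C22 and 6.30, 7.20 and 17.7 CPM in WT. TraesCS5A01G183300 (chromosome 5A, 382777934 to 382778428) had 43.4, 29.3 and 38.5 CPM in C22, against 0.291, 0.426 and 0.231 CPM in WT, a log2 fold change of 6.85 ± 0.27 (SE, adjusted p = 1.95e-05). Chitinases, which cut fungal cell walls, had 14 rising and 7 falling genes of 43. The falling count was 2 without C22 replicate 1, 3 without C22 replicate 3 or WT replicate 1 and 1 without WT replicate 2, and with all 12 libraries in the fit 8 rose and the others did not pass. TraesCS5B01G403700 averaged 19.6 ± 4.85 CPM in C22 and 0.177 ± 0.0410 CPM in WT, while TraesCS2A01G033600 had 18.5, 43.8 and 27.2 CPM in C22 and 83.0, 87.4 and 93.1 CPM in WT and fell by 1.56, which did not pass with all 12 libraries in the fit. The thaumatin-family gene TraesCS7A01G558500 rose by 6.37, and TraesCS4D01G227500, of the same family, fell to 14.1 ± 1.01 CPM in C22, against 55.6 ± 4.18 CPM in WT. WRKY factors, which regulate defence genes, rose in 69 and fell in 28 of 182 tested genes. NB-ARC immune receptors rose in 186 and fell in 100 of 907, and 20.5% rising members is close to the 20.7% of all genes.

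Jasmonate genes fell. Of 124 tested genes of jasmonate synthesis and signalling, 72 fell and 5 rose (11 rose without C22 replicate 2, and 3 without C22 replicate 1), with a median of -1.0. All 168 genes of the list summed to 2159, 1339 and 1989 CPM in C22 and 4826, 5320 and 4581 CPM in WT. The tify domain is found in JAZ repressors, which jasmonate both destroys and induces, and 45 of 52 tested genes with it fell. The tify gene TraesCS5B01G203400 (chromosome 5B, 369635388 to 369637712) had 23.4, 20.9 and 29.5 CPM in C22, against 128, 154 and 150 CPM in WT, and fell by 2.55 ± 0.19 (SE, adjusted p = 7.79e-05). TraesCS5D01G211200, a tify gene on 5D, fell by 1.97. An NADH:flavin oxidoreductase of the family that holds 12-oxophytodienoate reductase, TraesCS7B01G311600, averaged 8.44 ± 1.23 CPM in C22 and 37.5 ± 4.41 CPM in WT. Auxin genes moved in both directions, with 40 rising (14.8%) and 56 falling (20.7%) of 271, while library totals gave 74 rising and 16 falling. The falling share was near the 20.2% of all tested genes, and the rising share was below their 20.7%. The AUX/IAA gene TraesCS3B01G310500 had 3.66 ± 1.83 CPM in C22 and 29.9 ± 4.80 CPM in WT, and the SAUR-type gene TraesCS4A01G017000 had 8.19 ± 2.46 CPM in C22 and 1.37 ± 0.392 CPM in WT.

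Regulators of meristems and of flowering rose more often than they fell. KNOX genes, which keep shoot meristem cells undetermined, rose in 16 of 27 tested genes and fell in 5, with a median of 2.69. Their summed level was not higher in C22, with 251, 206 and 230 CPM, against 290, 310 and 241 CPM in WT. TraesCS4A01G256700 had 7.98, 3.94 and 8.29 CPM in C22 and 0 counts in WT, at least 232-fold higher, while the KNOX gene TraesCS7B01G423100 had 28.2, 21.2 and 26.5 CPM in C22 and 49.8, 55.3 and 45.0 CPM in WT and fell by 0.98 (adjusted p = 0.137 with all 12 libraries in the fit). YABBY factors, which set the lower side of lateral organs, rose in 12 of 16 and fell in 3. TraesCS6B01G266200 had 4.0, 7.89 and 3.79 CPM in C22 and 0, 0.0304 and 0 CPM in WT, a ratio of 514 with a 95% counting interval of 91.9 to 20347, and TraesCS5D01G033700 fell to 1.86 ± 0.643 CPM in C22, against 4.76 ± 0.693 CPM in WT (adjusted p = 0.057 by library totals). MADS-box genes with a K-box, the class of floral organ and flowering-time factors, rose in 33 of 61 and fell in 13, and only 7 fell without C22 replicate 3 or without WT replicate 2. TraesCS3D01G284200 had 10.7, 12.7 and 14.1 CPM in C22, against 0.450, 0.456 and 0.759 CPM in WT, a log2 fold change of 4.50 ± 0.24 (SE). PEBP genes, the FT and TFL1 family that promotes or delays flowering, rose in 9 of 15, and in 5 without C22 replicate 1 or 3 and 3 without WT replicate 1 or 2. Among them, TraesCS3A01G143100 had 19.4, 18.9 and 19.5 CPM in C22 and 4.23, 3.13 and 6.31 CPM in WT. Growth-regulating, TCP and SBP factors rose in 63 and fell in 10 of 124.

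Wax and flavonoid genes included the deepest falls. Wax and fatty acid elongation genes summed to 892, 1308 and 1014 CPM in C22 and 2838, 3191 and 3630 CPM in WT, with 41 falling and 22 rising of 147, while library totals gave 32 falling and 36 rising. The deepest fall of a described gene was at TraesCS4A01G303900 (chromosome 4A, 599611950 to 599613428), a FAE1 or type III polyketide synthase type gene. It had 0, 0 and 0.0223 CPM in C22, against 45.5, 37.7 and 31.7 CPM in WT, a ratio of 4319 with a 95% counting interval of 775 to 170631 (adjusted p = 1.95e-05). Close by, the GDSL lipase gene TraesCS4A01G303600 was lower by a ratio of 609 (109 to 24083), and the acyltransferase-family gene TraesCS4A01G304000 had 0 counts in C22 and was at least 76.1-fold lower. TraesCS1B01G168400, with the WAX2 domain of cuticular alkane synthesis, had 0.734, 0.652 and 1.07 CPM in C22, against 42.6, 56.0 and 38.7 CPM in WT, and fell by 5.78. TraesCS6B01G255100, of the same class, had 14.4, 21.9 and 17.8 CPM in C22 and 1.06, 0.182 and 0.0990 CPM in WT, and rose by 5.25. Of 26 tested WAX2 genes, 4 rose and 7 fell, beside 20.7% higher and 20.2% lower among all tested genes.

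In phenylpropanoid metabolism, chalcone synthases fell more often than they rose, and the entry enzymes rose more often than they fell. Of 98 tested phenylpropanoid genes, 39 fell and 19 rose. Genes with the C-terminal domain of chalcone and stilbene synthases, the first step of flavonoid synthesis, fell in 21 of 41 and rose in 4. The chalcone synthase type gene TraesCS2B01G019200 had 0.642, 0.623 and 0.512 CPM in C22, against 41.1, 44.9 and 39.6 CPM in WT, a log2 fold change of -6.14 ± 0.18 (SE), and TraesCS2A01G021900 had 0 counts in C22 and was at least 172-fold lower. Chalcone isomerase, the next step, averaged 10.9 ± 0.533 CPM at TraesCS5A01G146900 in C22 and 76.8 ± 15.1 CPM in WT. Aromatic amino acid lyases, the entry enzymes, rose in 15 of 40 and fell in 7. They included TraesCS1B01G122800, with 17.2, 13.4 and 18.0 CPM in C22 and 0.979, 1.82 and 1.72 CPM in WT, which rose by 3.43, and TraesCS2D01G204700, which rose by 2.61. Cellulose synthases fell in 24 of 70 and rose in 11, and the rising count was 3 without WT replicate 2 and 7 when C22 replicate 1, 2 or 3 or WT replicate 1 was left out. Library totals gave 19 rising and 11 falling cellulose synthases. TraesCS2B01G236600 averaged 2.37 ± 0.880 CPM in C22 and 16.9 ± 0.734 CPM in WT, while TraesCS5B01G096200 had 3.61, 4.83 and 3.54 CPM in C22 and 0 counts in WT, at least 133-fold higher. Terpene synthases had 13 rising and 22 falling genes of 51, with TraesCS2B01G015600 at 7.0, 26.9 and 14.5 CPM in C22 and 0.0794, 0.152 and 0 CPM in WT.

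Among abundant genes, the largest gain in CPM was a T2-type ribonuclease, TraesCS1D01G149800 (chromosome 1D, 206307460 to 206310846), a class of secreted or vacuolar enzymes that degrade RNA. It had 1012, 522 and 954 CPM in C22, against 184, 239 and 235 CPM in WT, and rose by 1.92 ± 0.30 (SE, adjusted p = 0.00176). TraesCS1B01G170200, a ribonuclease gene of the same family on 1B, rose by 2.04. A flavin-containing amine oxidoreductase, TraesCS7D01G375700, had 758, 966 and 738 CPM in C22, against 222, 285 and 172 CPM in WT. The sucrose synthase TraesCS4A01G446700, which splits sucrose for growing tissue, had 179, 131 and 144 CPM in C22, against 21.7, 24.2 and 11.5 CPM in WT, and rose by 2.98. A class III aminotransferase gene, TraesCS7B01G253600 (chromosome 7B, 467528239 to 467535225), had 38.5, 21.7 and 39.1 CPM in C22 and 0 counts in WT, at least 1133-fold higher. It was the only gene among the 12 largest described rises whose annotation names no protein of DNA, chromatin or replication.

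Genes that changed alike stood next to each other in places. The longest run of neighbouring tested genes that all changed at least 2-fold in the same direction held 11 genes on chromosome 6B, between 28256090 and 29068389. All 11 rose, 10 of them with a histone domain, and the median log2 fold change was 6.16. A run of 10 genes on chromosome 6A, between 32809546 and 33949746, rose with a median of 7.43. The longest falling run held 10 genes on chromosome 3B, between 35212403 and 35773729, with a median of -3.89, and 7 of them had a protease inhibitor, seed storage and lipid transfer domain. TraesCS3B01G063200 in that run had 9.05, 12.2 and 18.2 CPM in C22, against 166, 182 and 235 CPM in WT. Clustered copies of a family share sequence, so their counts are not independent.

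**Figure D4:**
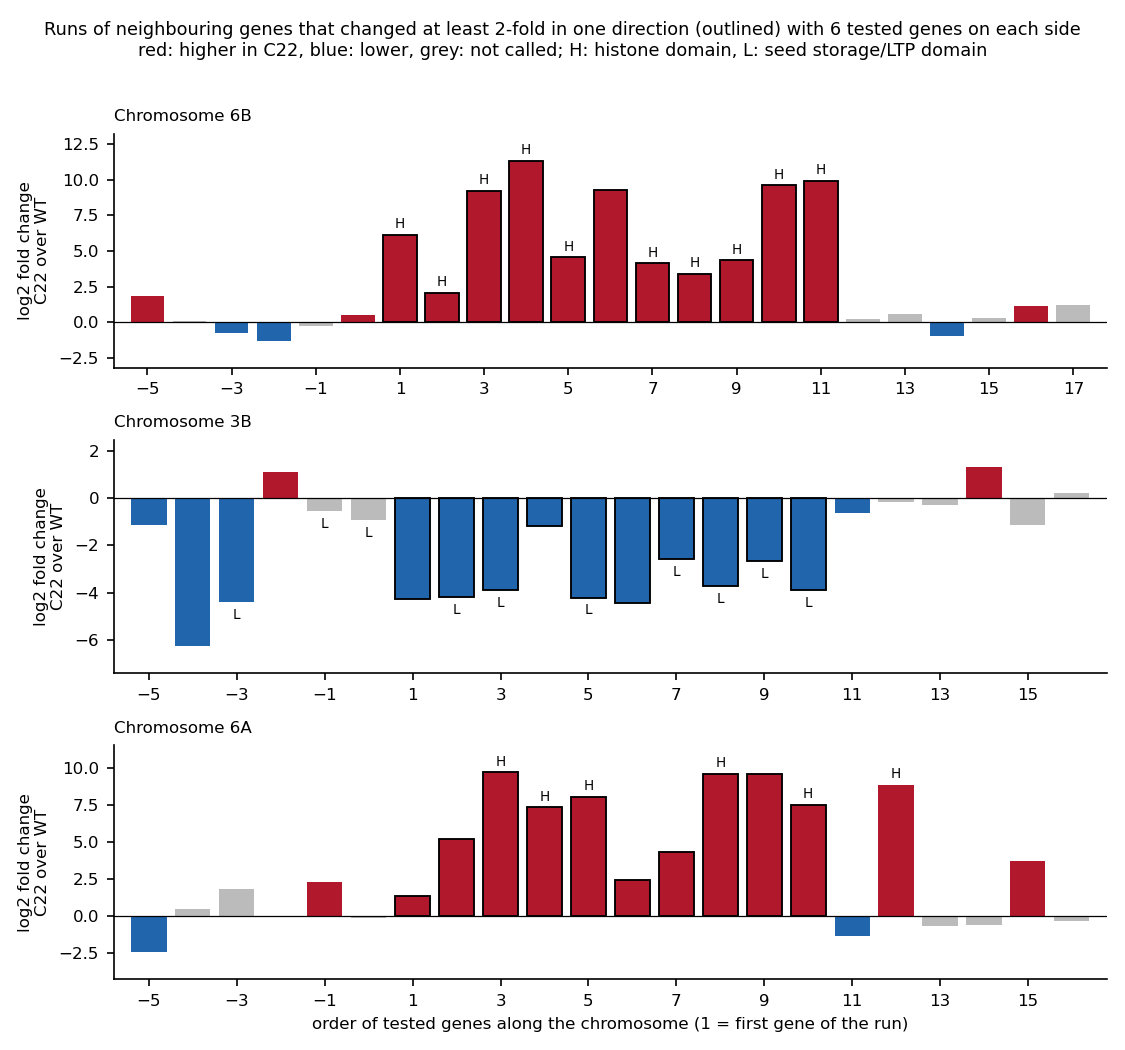
Log2 fold change of C22 over WT for tested genes in their order along chromosomes 6B, 3B and 6A, with the 3 longest runs outlined and 6 tested genes on each side. Red bars are higher in C22, blue bars lower and grey bars not called; H marks a histone domain and L a seed storage or lipid transfer domain. The medians of the runs are 6.16, -3.89 and 7.43, and the genes on either side are mixed in sign.

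C22 was then set against the other TaSIP1ΔC lines, to ask what sets this line apart. The test compared C22 with the mean of C20 and C40 in a fit to all 12 libraries, and CPM values in this paragraph and the next are on the scale of those 12. Only 283 of 75788 tested genes (0.373%) passed, 186 higher (0.245%) and 97 lower (0.128%) in C22, while 9601 had an unadjusted p under 0.05. The count rested on single libraries: it was 20 without C22 replicate 1, 28 without C22 replicate 2, 47 without C22 replicate 3, 28 without C20 replicate 1, 3525 without C20 replicate 2, 34 without C40 replicate 2 and 147 without C40 replicate 3. In that test by edgeR, 0 of 393 core histones and 0 of 167 replication genes passed, with 1 and 16 at an unadjusted p under 0.05, and DESeq2 called 0 and 4. Likewise 0 of 18 Rubisco small subunit genes and 0 of 13 alternative oxidase genes passed, with 0 and 6 at an unadjusted p under 0.05, and DESeq2 called 0 and 1. Core histones summed to 7446, 11640 and 7746 CPM in C22, 6247, 15924 and 1615 CPM in C20, 1279, 6628 and 10845 CPM in C40 and 1280, 1259 and 1416 CPM in WT. The libraries of C20 and C40 thus spread over the whole range, and a p that misses the threshold does not show that the lines act alike.

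Several developmental regulators were among the genes that differed. SBP-domain genes time the change from juvenile to adult growth and to flowering, and those on 2A, 2B and 2D were higher in C22 than in C20 and C40. TraesCS2A01G232400 had 17.7, 21.1 and 19.4 CPM in C22, 4.05, 6.67 and 3.06 CPM in C20, 0.893, 0.883 and 0.962 CPM in C40 and 3.49, 4.65 and 3.39 CPM in WT, a log2 difference of 3.24 from the mean of C20 and C40 (adjusted p = 0.000315). TraesCS2B01G250900 and TraesCS2D01G232800, the last chosen after its values were seen, differed by 3.0 (adjusted p = 0.00108) and 3.07 (adjusted p = 0.00054). Of 61 tested MADS K-box genes, 13 were higher in C22 than in the other lines and 0 lower, and in 12 of the 13 every C22 library was above all 9 other libraries. The 13 were picked by a test on these same libraries, so their separation is a description and adds no independent evidence. Of all 186 genes called higher in that test, 150 lay outside all C20 and C40 libraries. TraesCS7D01G261600, also chosen after its values were seen, had 3.12, 2.68 and 3.41 CPM in C22, 0 counts in C20, 0.185, 0.164 and 0.0931 CPM in C40 and 0, 0.0628 and 0 CPM in WT, a log2 difference of 6.98 (adjusted p = 0.00561). It and the 3 SBP genes passed under every alternative tried. TraesCS6A01G259000 had 4.18, 4.48 and 4.21 CPM in C22, 0.123, 0.131 and 0.341 CPM in C40 and 0 counts in C20 and WT, a log2 difference of 7.25 (adjusted p = 0.00628, and 0.0568 without C22 replicate 1). TraesCS6B01G286400 and TraesCS6D01G240200, also MADS genes with 0 counts in every C20 and WT library, differed by 7.72 (adjusted p = 0.0158) and 7.57 (adjusted p = 0.0257). TraesCS6B01G286400 had 2.06, 2.75 and 1.44 CPM in C22 and at most 0.0327 CPM in C40, and its adjusted p was 0.0902, 0.0732 and 0.051 without C22 replicates 1, 2 and 3 and 0.0601 without C40 replicate 2. TraesCS6D01G240200 had 3.53, 4.77 and 4.54 CPM in C22 and at most 0.246 CPM in C40, and its adjusted p was 0.117, 0.105 and 0.106 without C22 replicates 1, 2 and 3, 0.0648 without C20 replicate 1 and 0.0568 without C40 replicate 3. Where C20 had 0 counts, the size of the fitted difference depends on the small count added by the fit. YABBY genes were higher in 3 of 16.

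Wax and jasmonate genes also differed between the lines. Of 153 tested wax and elongation genes, 10 were higher in C22 than in C20 and C40, and 0 of the 10 were higher than in WT. In 0 of the 10 did every C22 library lie above all 9 other libraries, since C22 overlapped WT and often C20. TraesCS7B01G006200, of the FAE1 or type III polyketide synthase type, had 12.1, 7.26 and 3.86 CPM in C22, 1.75, 5.34 and 1.75 CPM in C20, 0.462, 0.622 and 0.466 CPM in C40 and 15, 12.7 and 4.90 CPM in WT, a log2 difference of 2.64 from C20 and C40 (adjusted p = 0.044). It was chosen after its values were seen, and its call was lost when any single library of C22 or C40, or C20 replicate 1 or 3, was left out, with adjusted p of 0.0643 to 0.232. In the other direction, 4 of 125 jasmonate genes were lower in C22 than in the other lines. The allene oxide cyclase gene TraesCS6D01G314300, an enzyme of jasmonate synthesis, had 17.6, 20.3 and 22.4 CPM in C22, 55.7, 47.4 and 37.8 CPM in C20, 77.8, 61.6 and 54.2 CPM in C40 and 65.8, 70.0 and 79.1 CPM in WT, a log2 difference of -1.45 (adjusted p = 0.0173). It too was chosen after its values were seen. Each C22 library was below all 9 other libraries. Of the 97 genes called lower in that test, 94 lay outside all C20 and C40 libraries, so this separation adds no independent evidence. The adjusted p of the allene oxide cyclase gene was 0.131, 0.0977 and 0.0763 without C22 replicates 1, 2 and 3, 0.0541 without C20 replicate 1 and 0.0591 without C40 replicate 2. The KNOX gene TraesCS4A01G256700 was shared with C40, with 8.39, 4.20 and 8.80 CPM in C22, 0.0365, 0 and 0 CPM in C20, 11, 7.0 and 9.56 CPM in C40 and 0 counts in WT.

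**Figure D5:**
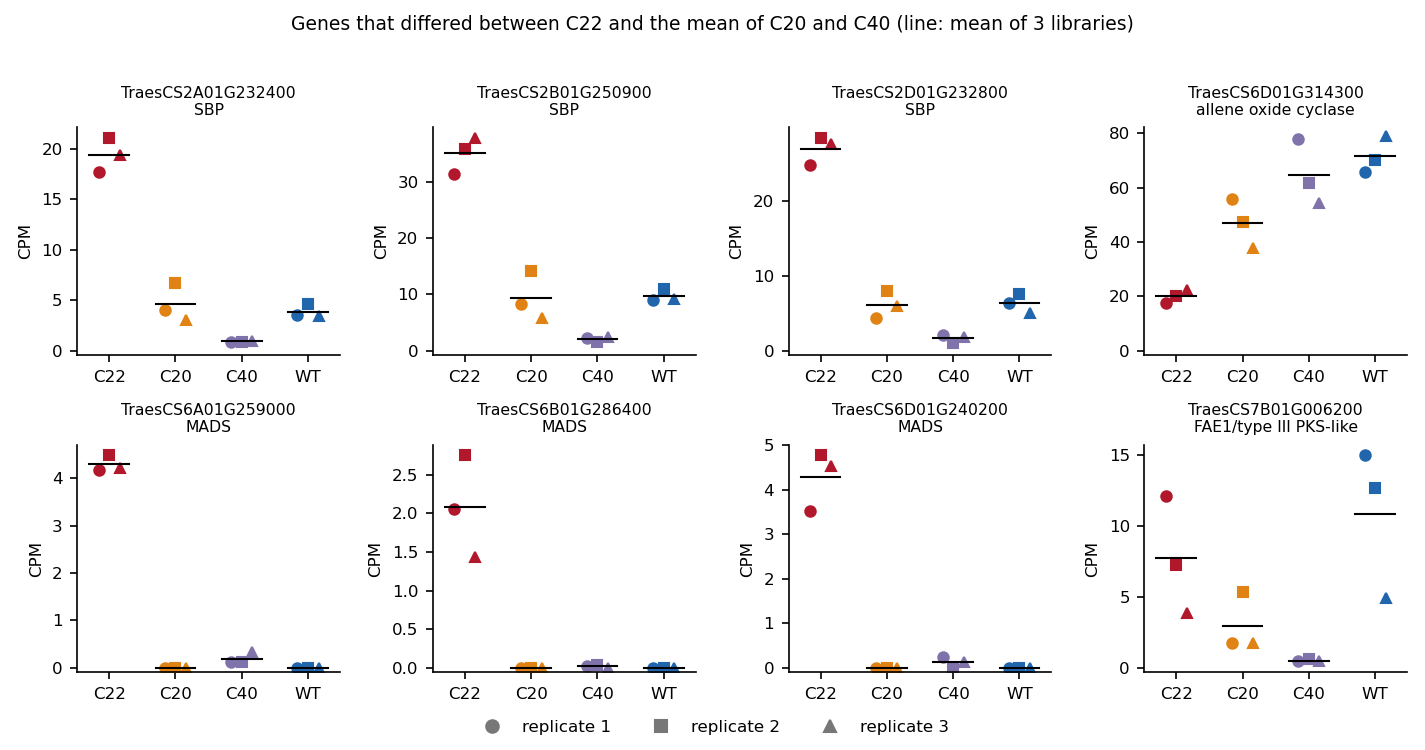
Level of 8 genes that differed between C22 and the mean of C20 and C40, in CPM on linear axes, in each library of C22 (red), C20 (orange), C40 (purple) and WT (blue); lines are means of 3 libraries and marker shapes give the replicate number. The SBP and MADS genes are highest in C22 (17.7 to 21.1 CPM for the first gene), the allene oxide cyclase gene is lowest in C22 (17.6 to 22.4 CPM), and the polyketide synthase type gene in C22 overlaps its range in WT.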

How the data were processed

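RNA from seedling tops without roots was sequenced in 3 libraries each of C22, C20, C40 and WT. The authors deposited raw counts per gene for 124118 genes, made with featureCounts 1.5.0-p3 per the submitters' processing notes, with Pfam descriptions and positions in the same table. The aligner, the build, the annotation and the strand option, not given in the sources used here, could affect how reads were split between homoeologs. Coordinates are those of the table. FPKM values were deposited by the authors, rescaled in a way the sources do not give, and served only in alternatives with a pseudocount of 0.1 or 1. Replicates differed by more than sampling noise (chi-square per gene 7.19 to 29.6), so none was merged.

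Counts of C22 and WT were filtered (filterByExpr), TMM-scaled and tested with edgeR 4.0.16 (R 4.3.3), Benjamini-Hochberg adjusted over all tested genes at 0.05; the biological coefficient of variation was 0.226. C22 was set against the mean of C20 and C40 in a fit with 4 group means (0.373). The procedure was tested on simulated counts in which few genes changed, equally often up and down. That simulation therefore did not test the choice of scaling. Alternatives were RLE factors, no filter, 1 CPM in 3 libraries, DESeq2 1.42.0, limma 3.58.1 on FPKM, a replicate block, a log2 size of 1, all 12 libraries and leaving out each library; library totals were added after seeing the data. Tables were made with Python 3.11.15 and pandas 2.3.3.

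The genes, Pfam-based lists and tests were chosen with earlier results of these data known. Some named genes had to be described, called, at 2 CPM or more in the higher group and without overlap of the groups. These were the 12 largest rises and falls in log2 fold change and the 10 largest gains and losses in CPM (at most 2 per description). The 5 largest differences per direction from C20 and C40 met the same conditions in that comparison. The 3 genes per direction and list with the lowest adjusted p only had to be called. Every tested alternative oxidase gene was named, called or not. The text gives a selection of these; exceptions are marked. Intervals and floors (3 counts over a group) cover counting error only.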

Additional observations from a re-analysis of the deposited data

Results flagged for a closer look

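Results were picked out here where C22 differed from the mean of C20 and C40 in a direct test of that difference. That was so for 283 of 75788 tested genes, 186 higher and 97 lower in C22 (edgeR, adjusted p of at most 0.05). Among the genes named above, the SBP-domain genes TraesCS2A01G232400, TraesCS2B01G250900 and TraesCS2D01G232800 differed by 3.24, 3.0 and 3.07 on the log2 scale. The MADS genes TraesCS7D01G261600, TraesCS6A01G259000, TraesCS6B01G286400 and TraesCS6D01G240200 differed by 6.98, 7.25, 7.72 and 7.57, each with 0 counts in C20.

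The MADS gene TraesCS3D01G284200 differed by 2.78 (adjusted p = 0.029), with 11.3, 13.5 and 15 CPM in C22, 1.46, 2.54 and 0.990 CPM in C20 and 0.862, 1.57 and 4.19 CPM in C40. It lost the call in 5 of 9 fits that left out a single library, at adjusted p of 0.0872 to 0.11. The class III aminotransferase gene TraesCS7B01G253600 differed by 2.95 (adjusted p = 0.044), with 40.5, 23.1 and 41.5 CPM in C22, 0.767, 0.148 and 1.44 CPM in C20 and 34.8, 18.7 and 27.3 CPM in C40. It lost the call in 7 of the 9, at 0.0588 to 0.211. The KNOX gene TraesCS4A01G256700 differed by 4.22 (adjusted p = 0.0134, and 0.0675 without C22 replicate 1 and 0.0541 without C20 replicate 1). For both of these genes the C22 and C40 libraries overlapped, and the C20 libraries lay below them. The polyketide synthase type gene TraesCS7B01G006200 differed by 2.64 and the allene oxide cyclase gene TraesCS6D01G314300 by -1.45.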

How the results depend on the processing

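Of the 109 named genes, 91 kept direction and call in C22 against WT under every alternative that tested them, 14 lost the call in at least 1, and 4 alternative oxidase genes that had not passed changed sign. TraesCS2A01G439400 ranged from -0.03 without C22 replicate 1 to 0.87 without C22 replicate 2. TraesCS2B01G571700 was at 0.49 by library totals, 0.01 without WT replicate 3, and between -0.12 and 0.07 over all fits that left out 1 library. By library totals TraesCS2D01G542600 was at 0.26 and TraesCS6B01G296400 at 0.24. By library totals the falls of TraesCS4A01G189900 (-0.59), TraesCS5B01G111200 (-0.21), TraesCS5D01G033700 (-0.82), TraesCS6A01G269100 (-0.31) and TraesCS6B01G125000 (-0.39) did not pass, and TraesCS2A01G439400 passed at 1.1. With all 12 libraries in the fit, 9 of the named genes did not pass: TraesCS2A01G033600, TraesCS2B01G459000, TraesCS2D01G123300, TraesCS3D01G245500, TraesCS5B01G111200, TraesCS5D01G169900, TraesCS5D01G481200, TraesCS6A01G269100 and TraesCS7B01G423100. The fit with all 12 libraries called 13666 genes (7181 higher, 6485 lower), and 13351 of the 13353 that were tested in both fits had the same direction in the fit of 6. Asking for a log2 fold change of at least 1 left 18219 genes, 7824 of them lower. Library totals gave 31592 higher and 6313 lower, with 53 lists rising and 10 falling more often, against 32 and 32. Leaving out 1 library gave 23386 to 28695 genes, 11821 to 14447 higher and 11565 to 14248 lower, and 30 to 34 lists rising and 30 to 33 falling more often.

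For C22 against C20 and C40, DESeq2 called 3332 genes (1316 higher, 2016 lower), limma on log2(FPKM + 0.1) called 605 (328 and 277) and on log2(FPKM + 1) called 722 (439 and 283). Leaving out 1 library gave 20 to 3525, 19 to 1071 higher and 1 to 2454 lower, so single genes of this comparison rest on few libraries. Of its 12 named genes, 4 kept the call throughout.

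Same-numbered C22 and WT libraries did not deviate together (r of -0.205, 0.104 and 0.0221), so the numbers are not taken as pairs. With a replicate block, 27376 genes passed in C22 against WT (13728 higher, 13648 lower) and 50 in C22 against C20 and C40 (43 higher, 7 lower). Under the block, 6 of the 12 genes named for the second comparison did not pass: TraesCS6D01G240200 (adjusted p = 0.0961), TraesCS6D01G314300 (0.0614), TraesCS6B01G286400 (0.0608), TraesCS7B01G006200 (0.0545), TraesCS7B01G253600 (0.0545) and TraesCS3D01G284200 (0.0528). Counts near 0 limit the size of the largest folds.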

Other observations

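Other Pfam domains with at least 15 tested genes showed shifts not described above. In C22 against WT, the RecF/RecN/SMC domain of cohesin and condensin type proteins rose in 17 of 18 genes with a median log2 fold change of 1.30, the ERCC4 nuclease domain of DNA repair in 15 of 17 with 1.94, and the BRCT domain of DNA damage proteins in 23 of 31 with 1.09. Genes of the Ribosomal L40e family rose in 14 of 15 with 2.07, domain 6 of the second-largest RNA polymerase subunit in 13 of 15 with 1.41, the Brix domain of ribosome assembly in 14 of 20 with 0.88, and the importin-beta N-terminal domain of nuclear import in 28 of 42 with 0.70. The QLQ and WRC domains, which mark growth-regulating factors, rose in 18 of 23 with 2.52 and in 26 of 39 with 1.26.

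Among falling domains, the Clp protease domain of plastid proteolysis fell in 22 of 25 genes with a median of -0.85, PAP fibrillins of plastoglobules in 19 of 26 with -0.79, and sigma-70 region 4 of plastid transcription factors in 10 of 15 with -0.85. B-box zinc fingers fell in 18 of 31 with -0.74, the SPX domain of phosphate sensing in 13 of 22 with -0.61, and the asparaginase domain in 10 of 18, with 1 rising and a median of -1.91. These domains were picked from 909 after their values were seen, against 20.7% higher and 20.2% lower among all tested genes, so the counts are descriptions only.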
